A study of Mus musculus with 18 samples.

Results

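SMC1A binding strength was followed at the sites that wild-type (WT) and Satb1-deficient (Satb1 KO) thymocytes hold in common. All deposited SMC1A peaks on chromosomes 1 to 19, in 4 lists, were joined into regions where they shared 1 bp or more, and a site was kept when all 4 lists placed a peak in its region. This gave 12088 shared regions of 34329 merged regions, or 35.2%. At these regions the height of the peak, its width and the position of its summit were compared between KO and WT.

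The cells were double-positive (DP) thymocytes sorted from mouse thymus, and binding was mapped by CUT&RUN, where a nuclease held on an antibody releases the DNA beside the bound protein. One WT and one Satb1 KO SMC1A library came from batch 1 and one of each from batch 2, so there were 2 libraries per genotype. Cells of both genotypes carry the label tamoxifen, so the WT groups had the drug as well. The labels give neither the Cre driver, nor the age of the mice, nor whether the libraries of a genotype came from separate mice; the spread between libraries may therefore be partly technical. Peak lists hold no expression values, so neither the loss of Satb1 nor the DP label could be checked in them.

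SMC1A forms part of the ring of cohesin, the complex that extrudes chromatin loops and holds them between CTCF sites. CTCF is the zinc-finger protein that blocks moving cohesin and so fixes where most cohesin peaks lie. SATB1 is a nuclear protein, abundant in DP thymocytes, that binds AT-rich DNA and is known for organising chromatin contacts around T cell genes. DP thymocytes are the stage at which T cell receptor alpha genes are rearranged and at which the CD4 or CD8 lineage is chosen.

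Height was read as a rank. Lists were called one by one and differ in depth, so the fold enrichment at the summit was ranked within each list over the 12088 regions and given as a percentile from 0 (weakest) to 100 (strongest). A difference of 10 points thus means that a site passed 10% of the other shared sites, and a shift common to all sites cannot be seen. The test used normal scores of these ranks in limma, and a region was called at a Benjamini-Hochberg adjusted p under 0.05 over all 12088 regions.

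Some shared sites lie on promoters, and 6 of them are shown here because their height rank passed the test with batch as a term and all summits share a short stretch. With batch as a term in the model 54 regions were called, as described below, and at 8 of the 54 all 4 summits fell inside 1 listed RefSeq promoter window of 300 bp on GRCm38.p6. The 6 printed below, chosen after their values were seen, are 3 of the 4 that were higher in KO and 3 of the 4 that were lower. Each runs 5′ to 3′ from 250 bp before the gene start, and the capitals mark the stretch between the outermost of the 4 summits. The windows are Ifngr1 at chr10:19591699-19591998 on the plus strand, Gm20753 beside Phlpp1 at chr1:106171475-106171774 on the minus strand, 4930597A21Rik near Rnf145 at chr11:44586067-44586366 on the plus strand, H2-D1 at chr17:35262844-35263143 on the plus strand, Nus1 at chr10:52417297-52417596 on the plus strand and Ppp1r35 at chr5:137778654-137778953 on the plus strand. Higher in KO:
Ifngr1: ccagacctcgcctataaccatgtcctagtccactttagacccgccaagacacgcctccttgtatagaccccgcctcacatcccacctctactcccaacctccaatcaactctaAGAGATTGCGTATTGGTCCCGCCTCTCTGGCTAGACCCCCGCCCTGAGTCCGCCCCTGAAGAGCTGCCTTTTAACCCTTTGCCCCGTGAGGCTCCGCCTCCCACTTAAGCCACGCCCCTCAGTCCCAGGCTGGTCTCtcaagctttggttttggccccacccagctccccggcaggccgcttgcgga
Gm20753: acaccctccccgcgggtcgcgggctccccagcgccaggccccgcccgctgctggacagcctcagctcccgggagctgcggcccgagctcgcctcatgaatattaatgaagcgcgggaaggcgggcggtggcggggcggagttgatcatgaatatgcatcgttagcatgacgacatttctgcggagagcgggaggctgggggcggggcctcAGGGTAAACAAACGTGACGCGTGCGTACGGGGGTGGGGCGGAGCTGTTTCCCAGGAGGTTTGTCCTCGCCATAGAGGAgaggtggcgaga
4930597A21Rik: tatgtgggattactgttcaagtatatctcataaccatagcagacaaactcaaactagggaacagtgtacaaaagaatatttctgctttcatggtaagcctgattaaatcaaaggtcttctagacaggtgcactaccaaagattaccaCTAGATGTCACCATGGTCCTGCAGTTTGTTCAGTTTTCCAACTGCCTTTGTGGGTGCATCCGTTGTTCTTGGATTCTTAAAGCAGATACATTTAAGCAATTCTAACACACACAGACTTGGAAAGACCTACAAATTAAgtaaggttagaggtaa
Lower in KO:
H2-D1: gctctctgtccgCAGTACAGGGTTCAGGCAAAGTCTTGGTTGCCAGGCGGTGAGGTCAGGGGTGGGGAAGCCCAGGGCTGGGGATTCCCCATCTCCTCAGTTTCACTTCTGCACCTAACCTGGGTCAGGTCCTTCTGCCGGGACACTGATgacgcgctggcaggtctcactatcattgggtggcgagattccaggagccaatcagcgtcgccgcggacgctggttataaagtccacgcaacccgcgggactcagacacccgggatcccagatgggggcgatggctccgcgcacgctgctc
Nus1: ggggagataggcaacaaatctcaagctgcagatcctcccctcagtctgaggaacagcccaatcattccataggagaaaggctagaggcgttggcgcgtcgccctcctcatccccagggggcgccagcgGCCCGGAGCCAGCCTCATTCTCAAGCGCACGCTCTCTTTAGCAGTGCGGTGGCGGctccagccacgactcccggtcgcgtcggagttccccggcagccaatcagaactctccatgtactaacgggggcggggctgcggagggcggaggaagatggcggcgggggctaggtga
Ppp1r35: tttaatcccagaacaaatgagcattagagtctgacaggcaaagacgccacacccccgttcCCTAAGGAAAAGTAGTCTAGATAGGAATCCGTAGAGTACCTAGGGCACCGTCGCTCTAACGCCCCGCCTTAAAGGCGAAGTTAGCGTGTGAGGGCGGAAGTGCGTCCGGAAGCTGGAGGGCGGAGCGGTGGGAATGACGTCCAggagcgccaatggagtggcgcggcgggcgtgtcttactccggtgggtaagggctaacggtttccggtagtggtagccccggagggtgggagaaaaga

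The 4 summits spanned between 55 bp (Nus1) and 143 bp (Ppp1r35), so both genotypes placed cohesin on the same short stretch and differed in its rank. Of all 32851 listed promoter windows, 4554 held the mean summit of a shared region.

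The 4 lists held 19466 (WT batch 1), 20152 (WT batch 2), 27459 (KO batch 1) and 20172 (KO batch 2) autosomal peaks. The median pile-up at the shared summits was 16, 15, 22 and 13 reads in the same order, so KO batch 1 was the deepest list and KO batch 2 the shallowest. Fold at the shared summits had a median of 8.75, 8.63, 10.4 and 8.35. Among the 1000 highest peaks of each list between 996 and 999 were shared, so the shared set holds nearly all strong cohesin sites. Regions just outside the set, held by 3 lists, were weaker, with a median fold between 5.73 and 6.29. Ranks were most alike within a genotype, with a Spearman correlation of fold of 0.733 between the WT lists and 0.753 between the KO lists. Between genotypes it was 0.700 in batch 1 and 0.662 in batch 2.

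Shifts in rank went both ways. The mean KO minus WT shift of the 2 batches lay within 5 points of 0 at 3446 regions (28.5%), and the central 50% of regions lay between -10.5 and 10.2 points. Where ranks did move, they tended to move the same way in both batches: 6880 regions (56.9%) had the same sign, and of the 1114 regions shifted by over 25 points in both batches 792 (71.1%) had the same sign, 405 higher and 387 lower. Across the 12088 regions the batch 1 shift and the batch 2 shift, which share no library, had a Pearson correlation of 0.215 (Spearman 0.194). The corresponding value for the batch difference, WT batch 1 minus WT batch 2 against KO batch 1 minus KO batch 2, was 0.0248. These are descriptions across sites, which share their 4 libraries. Both KO ranks lay above both WT ranks at 2492 regions (20.6%) and below them at 2562 (21.2%).

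**Figure D1:**
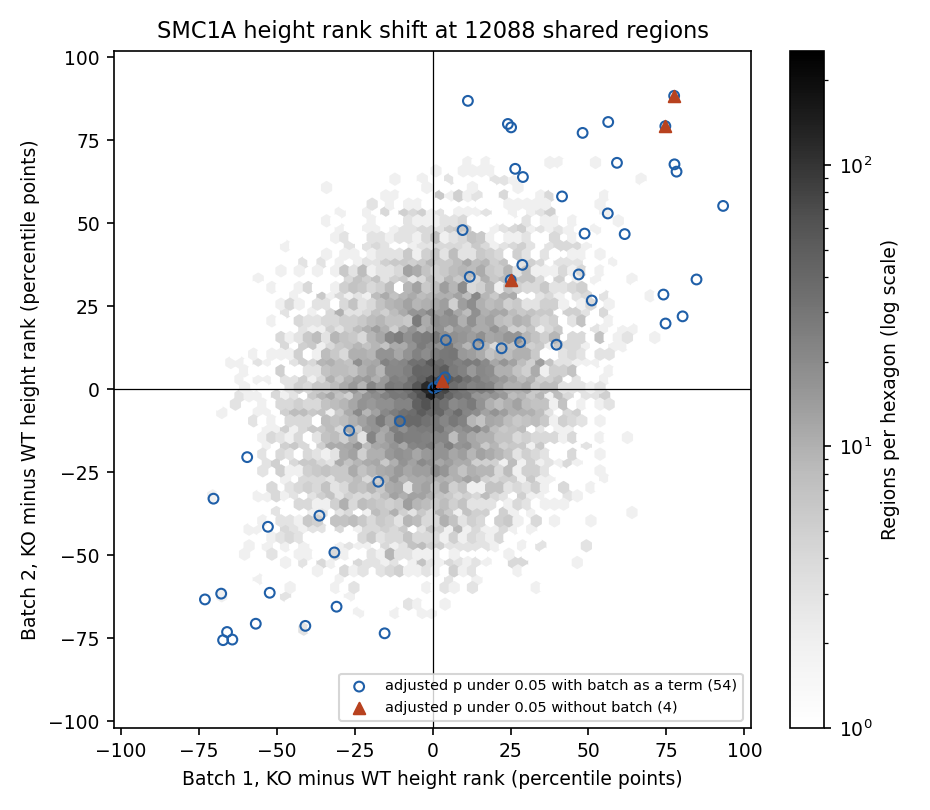
KO minus WT height rank in batch 1 (x axis, percentile points) against batch 2 (y axis, percentile points) at the 12088 shared SMC1A regions, with grey hexagons shaded by the number of regions on a log scale. The 25th and 75th percentiles of the shift were -12.6 and 12.6 points in batch 1 and -13.8 and 14.2 in batch 2. Circles mark the 54 regions called with batch as a term and triangles the 4 called without it. They lie in the quadrants where both batches moved the same way, which the calling largely fixes.

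Without batch in the model limma called 4 regions, all higher in KO (0.0331% of those tested), and 0 lower. At an unadjusted limma p under 0.05 there were 658 higher (5.44%) and 631 lower (5.22%), together 10.7% of the regions. With batch as a term, 54 regions were called (0.447%), 36 higher (0.298%) and 18 lower (0.149%). That model leaves 1 residual degree of freedom per region. To it limma adds a spread borrowed across regions, worth 55.2 degrees of freedom, against 15.9 without batch. The 54 calls thus rest mostly on this borrowed spread. The split between directions depended on how height was read: by rank of -log10 q there were 15 higher and 25 lower calls, by rank of read pile-up 22 and 11, and by log2 fold centred on the list median 21 and 27. Calls also depended on single libraries. There were 0 calls without WT batch 1 or without WT batch 2, 34 (10 higher, 24 lower) without KO batch 1 and 44 (12 higher, 32 lower) without KO batch 2.

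The called region with the lowest p was inside Yap1, the transcriptional co-activator of the Hippo pathway (chr9:7973710-7974067). Its pile-up was 19 reads in WT batch 1 and 15 in WT batch 2, against 83 in KO batch 1 and 39 in KO batch 2. The corresponding percentiles were 74.3, 65.1, 99.3 and 98.1. Both KO lists placed it among their strongest sites, and all 4 summits lay within 5 bp. The genotypes did not overlap in rank there, which its choice by p largely fixes. The normal score rose by 1.75 ± 0.24 (SE, n = 2 libraries per genotype, limma adjusted p = 0.0141). None of the 3 CTCF lists had a peak there.

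A second site, with no protein-coding gene within 100 kb (chr13:42436580-42436974), was already strong in WT. Its pile-up rose from 62 and 60 reads to 165 and 105, and its percentile from 96.8 and 97.4 to 99.9 in both KO lists (normal score 1.08 ± 0.16 SE, n = 2, limma adjusted p = 0.0141). Unlike the Yap1 site, it had a CTCF peak in each list, ranked among the highest of all. The third was inside Ankrd11, which encodes an ankyrin-repeat protein that binds histone deacetylases (chr8:123000242-123000959). It was among the weak sites in WT, at percentiles 11.2 and 4.91 (9 and 7 reads), and among the strong ones in KO, at 88.6 and 93.3 (41 and 30 reads). The change was 2.79 ± 0.46 (SE, n = 2, limma adjusted p = 0.0368). The fourth was inside Fbxo27, an F-box subunit of a ubiquitin ligase (chr7:28693476-28694111), with percentiles of 11.6 and 16.5 in WT and 86.3 and 95.8 in KO. Pile-up there was 14 and 10 reads in WT and 59 and 40 in KO, a change of 2.49 ± 0.42 (SE, n = 2, limma adjusted p = 0.0390). All 4 calls were lost when either WT library was left out (limma adjusted p from 0.311 to 0.489) and in limma without a trend (0.423 to 0.453), and those at Ankrd11 and Fbxo27 also without KO batch 2 (adjusted p = 0.0892 and 0.171). All 4 passed with batch as a term.

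The 54 regions called with batch as a term included these 4. Those named in the next sentences were picked from the 54 by gene function, after their values were seen. In 48 of the 54 a protein-coding gene lay at or within 100 kb, and 52 had a CTCF peak in the WT list. Such a CTCF peak was also present at 97.4% of all shared regions. Among those higher in KO were sites at the neighbouring ETS-family transcription factor genes Ets1 and Fli1. The Ets1 site stood at percentiles 56.9 and 80.0 in WT and 96.7 and 93.4 in KO (limma adjusted p = 0.038 with batch as a term). The Fli1 site stood at 73.8 and 6.50 in WT and at 85.2 and 93.4 in KO, so its WT libraries lay far apart. At the 2 sites every KO rank exceeded every WT rank, which their choice among regions called higher largely fixes. This was also so at 20.6% of all shared regions. In all, Ets1 had 7 shared sites within 20 kb, of which 2 were higher and 2 lower in both batches. Their median shift was -3.78 points in batch 1 and 13.4 in batch 2.

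At the start of Ifngr1, the ligand-binding chain of the interferon-gamma receptor, the percentile was 85.3 and 47.0 in WT and 95 in both KO lists, with 32 and 16 reads against 66 and 38. A site 46869 bp outside Tnfaip3, which encodes the NF-kappaB inhibitor A20, stood at 75.3 and 86.5 in WT and 97.5 and 98.8 in KO. Inside Chd3, a remodelling subunit of the NuRD complex, it went from 23.7 and 77.2 to 98.4 and 97.0, and inside Mta3, another NuRD subunit, from 16.1 and 2.91 to 72.5 and 83.4. A site 739 bp outside Mycn, a Myc-family transcription factor gene, stood at 46.8 and 52.7 in WT and 93.7 and 87.3 in KO. At all 5 sites the KO ranks lay above both WT ranks, which their choice among regions called higher largely fixes. The same was so at 20.6% of all shared regions.

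Lower sites called with batch as a term included promoters of H2-D1, Nus1 and Ppp1r35. At H2-D1, a classical MHC class I gene, the percentile was 59.7 and 20.6 in WT and 0.252 and 0.178 in KO. Its fold thus ranked among the lowest of the shared sites in both KO lists. The pile-up there was 28 and 21 reads in WT and 18 and 12 in KO. Over all shared regions the KO lists had a median of 22 and 13 reads, so the site was not among the weakest by reads. H2-D1 belongs to a family of similar genes among which reads can be split. At Nus1, a subunit of the enzyme that makes dolichol precursors, the percentile was 91.6 and 92.0 in WT and 38.8 and 50.6 in KO. At Ppp1r35, a centriole protein gene, it was 79.6 and 62.3 in WT and 11.8 and 0.699 in KO. The Ppp1r35 pile-up was 25 reads in both WT lists and 18 and 12 in KO. Inside Helb, which encodes a DNA helicase, the percentile was 83.8 and 72.2 in WT and 27.2 and 1.57 in KO.

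CTCF, read in other libraries of the same study (1 WT list and 2 KO lists analysed here), gave a separate readout at the 54 regions. Of the 36 higher regions 34 had a peak in all 3 CTCF lists, and their median CTCF percentile was 45.4 in WT, 81.2 in KO batch 1 and 74.8 in KO batch 2. CTCF ranked above WT in both KO lists at 25 of these 34 regions and below it in both at 2. Over all 9951 shared regions with a peak in the 3 CTCF lists the same counts were 3109 and 3147. At the Tnfaip3 site, for example, the CTCF percentile was 8.30 in WT, 95.3 in KO batch 1 and 75 in KO batch 2. At the Ankrd11 site it was 0.864 in WT, 72.0 in KO batch 1 and 9.24 in KO batch 2, so both KO lists lay above WT by very different amounts. Of the 18 lower regions 13 were in all 3 CTCF lists, with a median CTCF percentile of 49.5 in WT, 39.0 in KO batch 1 and 61.8 in KO batch 2, so the KO lists lay on either side of WT. CTCF ranked below WT in both KO lists at 6 of the 13 and above it in both at 1, and in KO batch 2 alone it was above WT at 6. Both KO lists are set against the same WT CTCF list, so they are not independent of each other. Whether the CTCF and SMC1A libraries came from the same cells is not given in the labels.

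The same held more weakly across all sites. Over the 9951 regions the KO batch 1 minus WT change in CTCF percentile had a Pearson correlation of 0.226 with the SMC1A shift of batch 1 and 0.172 with that of batch 2. For KO batch 2 the values were 0.118 and 0.0802. The 2 values with the batch 1 SMC1A shift, 0.226 and 0.118, involve the deepest SMC1A list. Sites share their libraries, so all 4 values are descriptions.

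By the naming rule, 10 regions per direction are shown, those called first and then those with the largest shift in the batch that moved less. The added regions were thus picked by their size. Higher were sites 2558 bp outside Irf2bp2, which encodes a partner of the repressor IRF2 (percentiles 2.55 and 20.2 in WT, 80.1 and 88.0 in KO), near Rnf145, an E3 ubiquitin ligase (4.74 and 27.4, then 83.0 and 92.9), and inside Map3k5, the stress kinase ASK1 (3.09 and 7.85, then 64.9 and 78.1). A site inside Aldh8a1, an aldehyde dehydrogenase, and 2 sites with no protein-coding gene within 100 kb completed this group. Lower were sites by the forkhead factor gene Foxo6 (89.4 and 85.5 in WT, 22.2 and 9.90 in KO), inside Sema3d, a secreted guidance protein (83.2 and 91.3, then 19 and 15.9), and by Ovca2, a hydrolase (66.6 and 76.4, then 0.761 and 3.30). The ephrin ligand gene Efnb2, the mediator genes Med11 and Cdk8, the cathepsin gene Ctsl, Nbeal2, Ppp1r35 and Zfp619 had the remaining 7. None of the 16 added regions passed limma without batch (adjusted p from 0.0838 to 0.256), and 7 of them passed with batch as a term. At Cdk8 the pile-up was 424, 431, 252 and 166 reads at a fold of only 10.6, 12.3, 5.23 and 5.62, so the local background there was high. Local background exceeded 10 times the lowest percentile of its list at 85 to 88 shared regions. Fold and reads also parted at other lower sites. Ranked by pile-up, the normal score changed by -0.706 at Med11, -1.04 at Nbeal2 and -1.08 at Ppp1r35, against -2.14, -2.30 and -2.39 by fold. At Cdk8 it changed by -0.248 by pile-up. At the remaining lower sites named here the change by pile-up lay between -2.54 (Ovca2) and -1.69 (Efnb2).

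**Figure D2:**
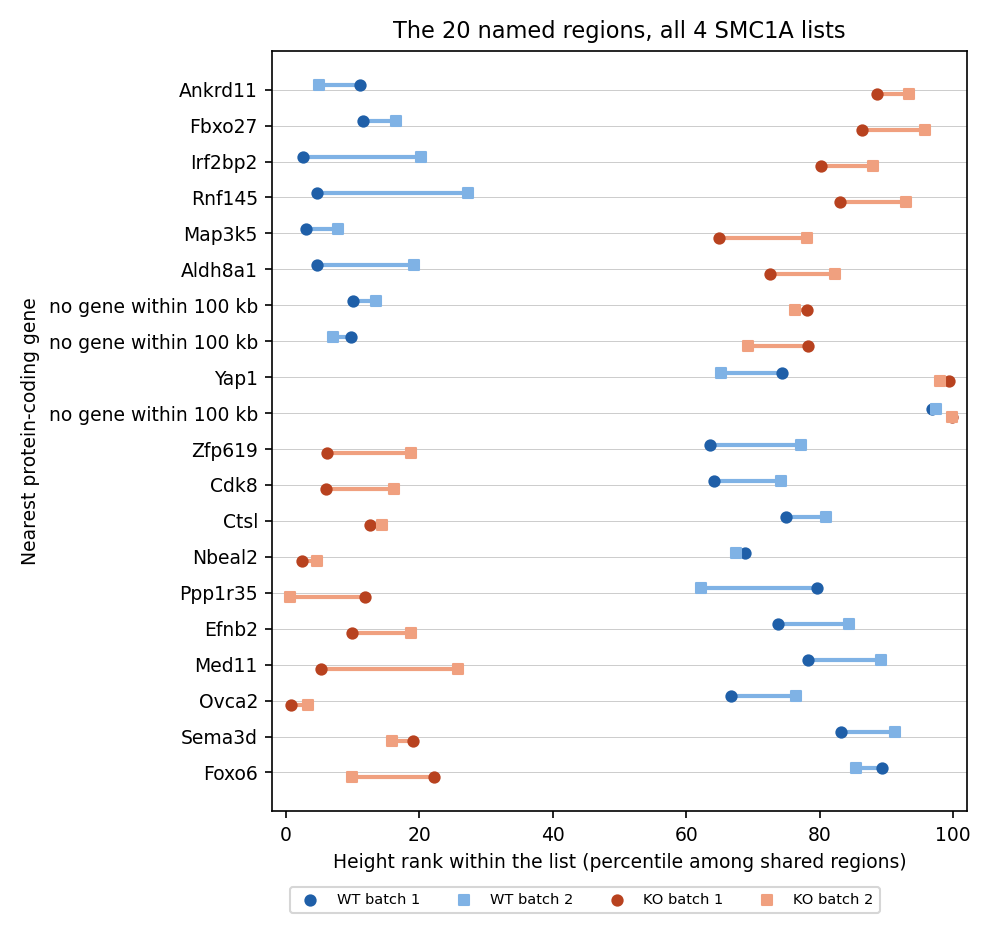
Height percentile (x axis) in each of the 4 SMC1A lists at the 20 regions chosen by the naming rule, by nearest protein-coding gene (y axis); lines join the 2 lists of a genotype. WT (blue) and KO (orange) points do not overlap at any of the 20, which the choice of regions fixes.

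Position relative to genes went with small differences. The nearest gene start could be classed at all but 2711 regions, where a gene with no listed start was nearer. Within 250 bp of a start (4216 regions) the median shift was -1.11 points, with -1.02 in batch 1 and -0.856 in batch 2, and 3.42% were higher and 5.17% lower at an unadjusted limma p under 0.05. Between 20 and 100 kb from a start (1378 regions) the median was 2.59, with 3.15 in batch 1 and 0.941 in batch 2, and 8.85% were higher and 6.53% lower. Both shares stand beside 5.44% and 5.22% of all regions. These medians are small beside the central 50% of shifts, which ran from -10.5 to 10.2 points.

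CTCF occupancy went with larger ones. Of the shared regions 9951 (82.3%) had a peak in all 3 CTCF lists, and their median shift was 0.269 points. The 59 regions with no CTCF peak in any list had a median shift of -13.6 points, with -21.3 in batch 1 and -11.1 in batch 2. Both KO ranks lay below both WT ranks at 30 of the 59, against 21.2% of all regions, and above them at 1, the Yap1 site. At an unadjusted limma p under 0.05, 22% of the 59 were lower and 1.69% higher, and 0 were called lower. The 199 regions with a peak in 1 CTCF list had a median of -4.12. Using the WT CTCF list alone, the 315 regions without a peak had a median of -3.87 (-3.90 in batch 1, -2.0 in batch 2) and the 11773 with one had 0.00414.

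These cohesin sites without CTCF were narrow, with a median width of 330 and 339 bp in WT and 314 and 220 bp in KO. Their median pile-up was 14 and 15 reads in WT and 13 and 11 in KO, while over all shared regions it was 16 and 22 reads in WT and KO of batch 1 and 15 and 13 in batch 2.

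**Figure D3:**
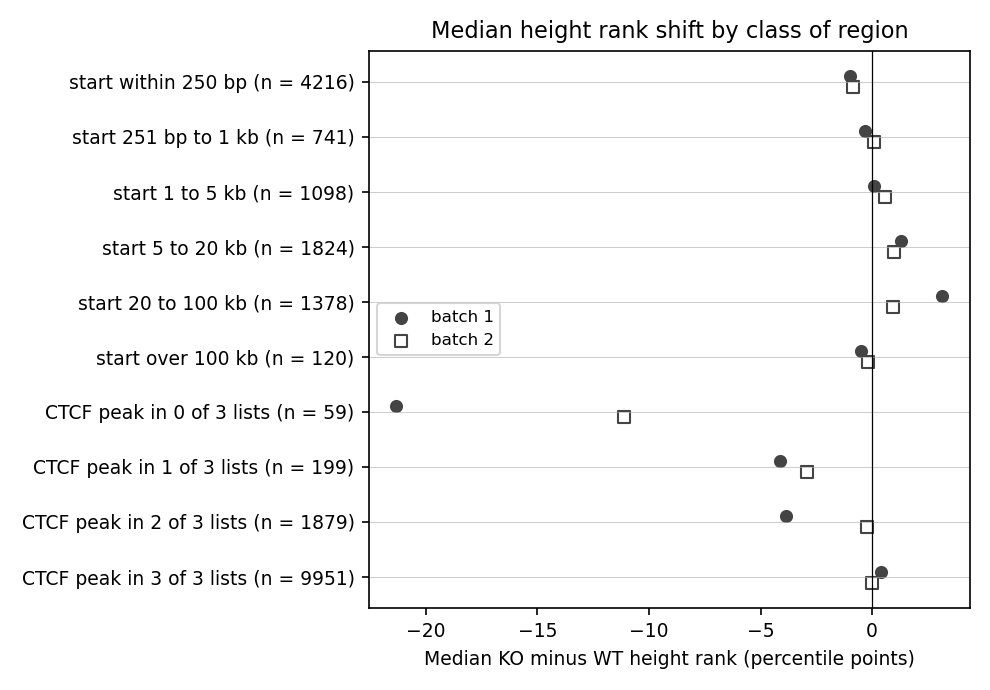
Median KO minus WT height rank (x axis, percentile points) in batch 1 (filled circles) and batch 2 (open squares) for shared regions classed by distance to the nearest listed gene start and by the number of CTCF lists with a peak (y axis, with the number of regions). The class without CTCF stands lowest in both batches, at -21.3 and -11.1 points.

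Genes of the T cell programme and of other kinds, among them housekeeping genes and markers of other cells, were taken from 12 lists. A region was assigned when its summit lay within 20 kb of a gene body. Transcription factors of the T lineage had 100 shared regions with a median shift of -2.11 points (-2.98 in batch 1, -2.43 in batch 2), against -0.0227 over all regions. At an unadjusted limma p under 0.05, 9 of the 100 were higher and 4 lower, beside 5.44% and 5.22% of all regions, and 0 were called without batch. With batch as a term 2 were called higher (0.298% of all regions were), the Ets1 and Fli1 sites already given, and 0 lower.

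Individual T-lineage sites went both ways. Near Tcf7, which encodes the T cell factor TCF1, a site at Skp1 stood at percentiles 0.687 and 0.629 in WT and 32.4 and 47.0 in KO. The median over all 5 sites near Tcf7 was -12.2 points, with 5.49 in batch 1 and -13.9 in batch 2, and 3 of the other 4 had a negative mean shift. Inside Bcl11b, which locks in T cell identity, a site stood at 89.3 and 60.4 in WT and 19.6 and 10.2 in KO, while the 8 other Bcl11b sites had unadjusted limma p-values of 0.121 or more. At Bach2, a repressor that restrains effector differentiation, all 4 sites (3 of them inside the gene) ranked lower in KO in both batches. The most marked stood at 36.8 and 33.5 in WT and 3.47 and 2.67 in KO. The other Bach2 sites had unadjusted limma p-values of 0.138 or more. Both sites at Zbtb7b, which encodes the CD4-lineage factor ThPOK, were lower in both batches, one from 46.3 and 65.9 to 17.4 and 9.72. Over all shared regions 56.9% had the same sign in both batches, counting either direction. The single site at Runx3, the CD8-lineage factor, was higher by fold, at 2.88 and 0.256 in WT and 23.9 and 19.2 in KO. Its pile-up did not rise, with 16 and 11 reads in WT and 13 and 8 in KO. None of these passed an adjusted limma test, with or without batch.

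Loci of the antigen receptor and coreceptors had 91 shared regions with a median shift of -0.157 points, 6 higher and 4 lower at an unadjusted limma p under 0.05 and 0 called with or without batch. These shares of 6.59% and 4.4% stand near the 5.44% and 5.22% of all regions. Beside the T cell receptor beta constant genes Trbc1 and Trbc2 3 sites were higher; the first went from 3.48 and 38.5 in WT to 74.2 and 85.6 in KO, and the second from 61.6 and 23.5 to 77.7 and 87.9. The third went from 9.19 and 13.0 to 58.2 and 56.3. At Cd8b1, the CD8 beta chain gene, a site went the other way, from 56.9 and 41.4 to 3.95 and 1.57. Cd4 had 5 sites, with 2 higher and 0 lower in both batches. Their median shift was -2.78 points in batch 1 and 3.44 in batch 2. Rag1, a subunit of the V(D)J recombinase, had 2 sites, both lower in both batches, and the one at its start stood at 44.1 and 24.3 in WT and 19.8 and 5.10 in KO. Of 4 sites at Satb1 itself 3 were lower in both batches, with a median shift of -9.23 points. None of the Cd4, Rag1 or Satb1 sites reached an unadjusted limma p of 0.05. Over all shared regions 56.9% had the same sign in both batches, counting either direction. The Rag1 start site is also the only site within reach of Rag2, its partner gene. At the other loci of the fixed list, medians had the same sign in both batches at Trac (3 sites, 6.03 and 14.4 points), Myc (2 sites, 17.1 and 11.5), Ctcf (4 sites, -0.860 and -6.08) and Rad21 (1 site, -3.50 and -21.7). The sign differed between batches at Cd8a (4 sites, 1 of them shared with Cd8b1, -37.1 and 7.59), Gata3 (2 sites, -13.3 and 40.2), Ikzf1 (5 sites, 9.998 and -2.23) and Lef1 (3 sites, 16.6 and -12.9). It also differed at Bcl11b (9 sites, -5.96 and 3.64) and Bcl6 (2 sites, -12.1 and 23.5).

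The other lists were small. Cytokine and effector genes had 8 shared regions with a median shift of 13.6 points (18.9 in batch 1, 6.86 in batch 2), 2 of them higher at an unadjusted limma p under 0.05 (5.44% of all regions were) and 1, at Ifngr1, called with batch as a term (0.298% of all regions). Regulatory T cell genes had 10 regions and a median of 2.10, with 11.7 in batch 1 and -2.38 in batch 2. Cohesin, CTCF and nuclear architecture genes had 40 regions, 3 higher and 3 lower at an unadjusted p, and a median of -0.143 (0.511 in batch 1, -3.21 in batch 2). Housekeeping genes had 28 and a median of -2.81, and survival genes 32 and a median of -0.111. The CTCF-dense control loci had 12 regions and a median of 3.59 (-5.73 in batch 1, 4.70 in batch 2). Marker lists of B cells, myeloid cells, erythroid cells and thymic epithelium had 11, 7, 9 and 7 shared regions, with medians of 0.805, -0.0476, -5.20 and -5.01 and 0 regions at an unadjusted p under 0.05. In all 4 marker lists the batch medians differed in sign, for example 7.57 and -13.3 for thymic epithelium and -5.75 and 2.68 for erythroid cells.

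Shared sites close together along a chromosome were then averaged in fixed 1 Mb windows with at least 5 regions. Of 904 windows 1 was called higher by limma (0.111%) and 0 lower, while 77 were higher (8.52%) and 54 lower (5.97%) at an unadjusted p under 0.05. It covers chr11:44000001-45000000, with Il12b (a subunit of interleukin-12), Ublcp1, Rnf145 and Ebf1 (the B-lineage transcription factor). Its mean normal score was -0.363 and -0.455 in WT and 0.711 and 0.549 in KO, a rise of 1.04 ± 0.13 (SE, n = 2, limma adjusted p = 0.0278). All 6 of its regions were higher in KO within each batch. In WT their percentiles ranged from 4.74 to 84.0 in batch 1 and from 1.84 to 81.4 in batch 2. The amounts were uneven. A site near Rnf145, itself called with batch as a term, had a mean shift of 71.9 points. The site at 84.0 in WT batch 1 stood at 86.0 in KO batch 1, and the Il12b site went from 48.9 to 50.6 in batch 2. The window was singled out by its p, so a common direction of its regions is part of that choice. With batch as a term the window did not pass (limma adjusted p = 0.103). There were 0 called windows without KO batch 1 or without KO batch 2, 35 without WT batch 1 and 12 without WT batch 2.

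**Figure D4:**
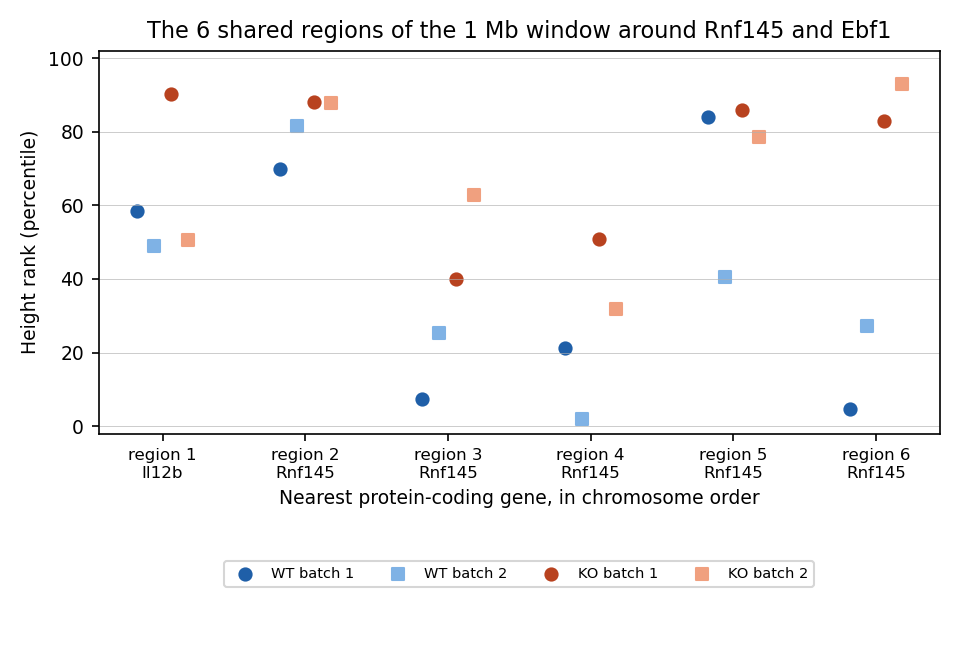
Height percentile (y axis) of the 6 shared regions of the called window on chromosome 11, in chromosome order with the nearest protein-coding gene (x axis), in each of the 4 SMC1A lists. In each batch the KO point lies above the WT point at all 6 regions.

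The next window by p, chr14:53000001-54000000, lies in the T cell receptor alpha locus and holds 83 annotated V segments and no protein-coding gene. Its 5 regions had mean normal scores of -0.803 and -0.578 in WT and 0.174 and 0.495 in KO, a difference of 1.02 ± 0.16 (SE, n = 2, limma adjusted p = 0.0532). At 4 of the 5 both KO libraries ranked higher within their batch, and 1 of them was called with batch as a term. V segments resemble each other, and how reads with several matches were handled is not given in the sources used here. Other windows at the head of the list were higher around Egr2 and Jmjd1c on chromosome 10 and at Nrip1 on chromosome 16, and lower at Tox3 and Chd9 on chromosome 8 (limma adjusted p = 0.0845 for each). Beyond such windows neighbours moved together only at short range. The batch 1 shift of a region and the batch 2 shift of a neighbour had a Pearson correlation of 0.123 within 5 kb (1311 pairs), 0.0460 from 5 to 20 kb and 0.00653 from 50 to 100 kb.

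Widths of shared peaks differed less clearly. The median width was 468.5 and 471 bp in WT and 560 and 447 bp in KO, so KO was wider in batch 1 and narrower in batch 2. The mean difference of 33.8 bp had an exact two-sided permutation p of 1, where 0.333 is the smallest possible. After centring on the list median limma called 0 regions (0%), with batch or without it. At an unadjusted p under 0.05 there were 576 wider (4.77%) and 391 narrower (3.23%). Without WT batch 1 there were 42 calls and without WT batch 2 there were 6.

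The regions with the largest width change in both batches, picked by that size, were these. At Sox4, a transcription factor gene of early lymphocytes, the peak was 341 and 227 bp wide in WT and 2246 and 988 bp in KO. At Ttc3, a ubiquitin ligase, it was 388 and 433 bp in WT and 2165 and 1462 bp in KO. Lrba, a vesicle-trafficking protein gene, went the other way, with 874 and 829 bp in WT and 200 bp in both KO lists, and Dock2, the lymphocyte Rac activator, had 1044 and 1271 bp in WT and 282 and 363 bp in KO. The number of peaks differed as well, and width is that of the strongest: the Ttc3 region held 3 peaks in both WT lists and 1 in both KO lists, that at Sox4 3 in both WT lists and 1 and 2 in KO, and that at Dock2 1 in both WT lists and 2 in both KO lists. At each of these regions the genotypes did not overlap in width, which the choice by size largely fixes. The limma adjusted p lay between 0.334 and 0.480 for all 10 regions named by the rule. Height and width went together: the height and width shifts of batch 1 had a Pearson correlation of 0.238 over the 12088 regions, and batch 1 height against batch 2 width, which share no library, 0.134.

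Summit positions varied between lists. The median distance between the summits of 2 lists was 53 bp between the WT lists, 51 bp between the KO lists, 52 bp between genotypes in batch 1 and 61 bp in batch 2. Between 43.7% and 49.6% of summits lay within 50 bp in each pair of lists. In 3193 regions (26.4%) the summits of each genotype lay within 50 bp of each other, and there KO and WT differed by at least 100 bp in 287, by at least 200 bp in 36 and by at least 500 bp in 7. limma called 2 regions (0.0165%), both with the KO summit at a lower coordinate. At an unadjusted p under 0.05 there were 774 (6.4%), 3.18% towards higher and 3.22% towards lower coordinates. With batch as a term 0 were called, and there were 0 calls when any 1 library was left out.

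One of the 2 lay in Bcl6, which encodes a transcriptional repressor of T and B cells (chr16:23982065-23987956, inside the gene body). The strongest summit was at 23984304 and 23984316 in WT and at 23982581 and 23982589 in KO, a move of -1725 bp (limma adjusted p = 0.0235). The region held more than one peak in every list. In WT batch 2 a separate peak stood at the KO position, with a fold of 9.78 against 15.2 at the WT position, and in KO batch 2 the KO position had 14.5 against 13.1 at a peak 684 bp above the WT position. The height percentile of the region itself was 85.5 and 84.6 in WT and 80.3 and 85.7 in KO, so the genotypes overlapped in height.

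The other lay beside Ago2, the small-RNA-guided endonuclease (chr15:73184907-73187321), with a move of -1480 bp (limma adjusted p = 0.0403). Both WT lists had peaks at both positions, with folds of 14.4 and 15.4 in batch 1 and 17.1 and 18.0 in batch 2. KO batch 2 had 15.4 at the lower and 8.08 at the upper position, and KO batch 1 a single peak of 29.3 with its summit at the lower position. In both WT lists the folds of the paired peaks thus lay close together. Of the 7 regions that moved by at least 500 bp, the remaining 5 were inside Scd2 and Rcor2, 407 bp outside Slc2a4, 11623 bp outside Lbx1 and 72742 bp outside Kif2a (limma adjusted p from 0.0687 to 0.234).

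**Figure D5:**
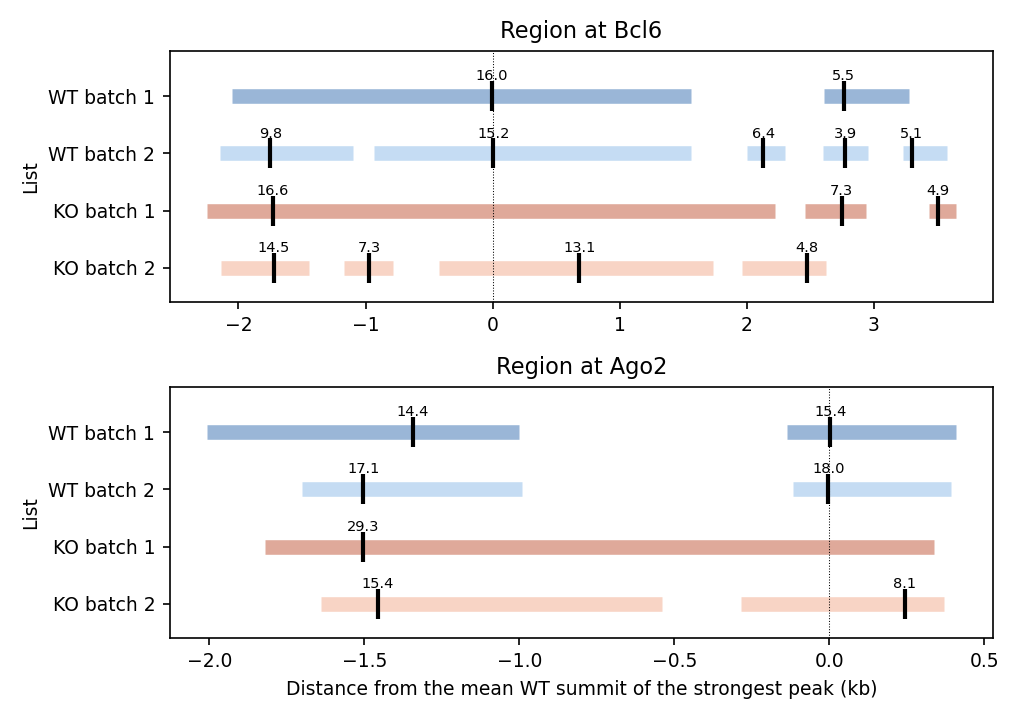
Peaks in the regions at Bcl6 and Ago2 in each of the 4 SMC1A lists (y axis), with distance from the mean WT summit of the strongest peak in kb (x axis); bars are peaks, ticks are summits and numbers are fold enrichment. The highest fold lies at 0 in both WT lists and between -1729 and -1456 bp in both KO lists.

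The spread of peak heights within a list was also compared. The 90th percentile of fold divided by the median fold was 2.14 and 2.10 in WT and 2.07 and 1.99 in KO, lower in KO in both batches (differences of -0.0701 and -0.107). The exact two-sided permutation p was 0.333, the smallest that 2 lists against 2 can give. The median distance of the summit from the middle of the merged region was 77.0 and 78.2 bp in WT and 72.5 and 77.0 bp in KO (exact permutation p = 0.667).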

How the data were processed

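CUT&RUN of sorted DP thymocytes was deposited as MACS2 peak lists, one per library. Per the submitters' processing notes, Trimmomatic, Bowtie2, SAMtools, deepTools and MACS2 were used with mm10; the caller's settings and control are not stated in the labels. The deposited columns used were the authors' fold enrichment at the summit (a ratio), the −log10 p and the −log10 q of each peak. Depth behind each value was recovered from these: whole pile-up reads fitted fold and −log10 p in at least 99.98% of peaks (tolerance 0.001).

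SMC1A peaks of chromosomes 1 to 19 were merged (1 bp overlap), and the peak with the highest fold represented each list. limma 3.58.1 in R 4.3.3 was run on 4 measures: normal scores of height rank (with trend), log2 width centred on the list median, summit position (robust) and 1 Mb window means. Region names follow RefSeq (GRCm38.p6): the protein-coding gene holding the mean summit, else the nearest within 100 kb. Named regions were up to 10 per direction for height, 5 per direction for width and 5 for summit, called first, then by the smaller within-batch shift. The members and lists were chosen with earlier results of these data known. The height fit without batch was tested on simulated data with the same spread at every region. The other fits were not tested in this way. Batch equals replicate number in the labels and so pairs the libraries; same-batch libraries deviated together only weakly (correlation 0.0211 for height, 0.0068 for width, 0.0055 for summit). Alternatives comprised batch as a term, leaving out each library, other height measures, stricter region sets and other windows. The second WT CTCF sample and the IgG, K27ac and input samples were not analysed here. One locus is not reported here.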

Additional observations from a re-analysis of the deposited data

How the results depend on the processing

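The 4 height calls became 54 with the replicate block for batch, which pairs libraries, 13 with a mean -log10 q of 10 or more, 40 by rank of -log10 q, 33 by pile-up, 48 by log2 fold, 9 with lists of equal length and 0 in limma without trend (0 to 44 leaving out 1 library). Calls stayed within 1.5 times of 4 with 1 peak in every list or summits within 200 bp (5 each). Width gave 0 to 42 calls leaving out 1 library and 0 under every other setting run. The 2 summit calls became 0 with the replicate block, with 1 peak in every list, with summits within 200 bp and without any 1 library, and 7 with a mean -log10 q of 10 or more. The 1 called window became 0 with the block, with summits within 200 bp and by rank of -log10 q, 4 with a mean -log10 q of 10 or more, 4 in 500 kb windows, 3 with at least 10 regions, 7 by log2 fold, and 0 to 35 leaving out 1 library. The KO minus WT difference in median width ran from -22.75 to 90.25 bp leaving out 1 library (chosen after seeing the data), negative without KO batch 1. With gene bodies only, the median shift was -8.19 points for T-lineage factors and 1.03 for housekeeping genes. The cause of these differences was not tested, except that leaving out a library leaves fewer samples. Rank cannot show a change common to all sites, and pile-ups of 13 to 22 reads limit the precision of single ranks.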
